A study of Mus musculus with 12 samples.

Results

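The regions described here are stretches of mouse autosomal DNA that ATAC-seq called open in macrophages after 6 h of lipopolysaccharide (LPS) and in no library taken earlier. Peaks of the 12 deposited lists were chained into regions wherever they overlapped by at least 1 bp. A region was kept when 0 of 4 libraries at 0 h, 0 of 4 at 2 h and 4 of 4 at 6 h had a peak in it. This gave 3244 of 112047 autosomal regions (2.90%), out of 115231 regions in all. The presence or absence of a peak chose these regions, so their contrast between 6 h and the earlier times is the selection itself and is given without a test. Below they are called the 6 h only regions.

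ATAC-seq uses the Tn5 transposase, which inserts sequencing adapters where DNA is not covered by nucleosomes or other proteins. The cells were macrophages grown from bone marrow of female C57BL/6 mice, either wild type (WT) or knockout for lincRNA-EPS (KO), a long noncoding RNA that the title of the study describes as holding back inflammatory transcription. The labels give 9 days of growth in 20% L929 supplement, then 100 ng/ml LPS for 0, 2 or 6 h, and 50000 cells per transposition reaction. The 6 groups of genotype and time hold 2 libraries each. The labels neither describe the knockout allele nor tie the 2 libraries of a group to different mice or cultures, so their spread may be technical. Names of peaks in the 4 lists labelled 2 h give 1 h instead. The labels are followed here, and 1 h remains possible for these 4 libraries. The labelled cell type could not be checked against marker genes without annotation of the build.

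LPS, a component of the outer membrane of Gram-negative bacteria, is sensed by the receptor TLR4. Signalling from TLR4 activates NF-κB, AP-1 and interferon regulatory factors within minutes, and these induce a first set of inflammatory genes. Some products of those genes, among them type I interferon and newly made transcription factors, drive a later set. Most enhancers used by macrophages are held open at rest by the lineage factor PU.1 and its partners. A smaller class, often called latent enhancers, becomes accessible after a stimulus.

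The lists held 54771 to 67128 peaks at 0 h, 70387 to 77100 at 2 h and 78766 to 91610 at 6 h. The lists carry no read totals, so the background coverage recovered from the peak values served as a measure of depth. The KO libraries of 0 h had 1.43 and 1.77 reads, those of 6 h 2.17 to 3.35 and the other 6 libraries 2.32 to 3.04. Gene annotation and genome sequence of mm9, the build of the files, were not used here, so regions are given by coordinate and without gene names or sequences.

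Opening at 6 h alone was by far the most frequent pattern limited to a single time. The mirror rule for 2 h, with 4 of 4 libraries at 2 h and none at 0 or 6 h, was met by 57 autosomal regions (0.0509%). The mirror rule for 0 h was met by 0 regions (0%). The 4 lists at 6 h were the longest and the 4 at 0 h the shortest. The part of list length in these counts was not tested. After thinning every list to the depth of the shallowest library, the 3 rules gave 2613, 38 and 4 regions. In lists cut to 54771 peaks each they gave 1709, 43 and 20 regions, and 883 (27.2%) of the 3244 regions met the rule in those lists. The order of the 3 counts was the same in all of these settings, while which regions qualified depended on the peaks admitted.

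A choice made in 1 genotype could be read in the libraries of the other, whose calls were not used in it. Peaks of all 12 lists did set the bounds of the regions. In WT, 6615 autosomal regions (5.90%) had peaks in both 6 h libraries and in none at 0 or 2 h. Of these, KO 6 h replicate 1 called 85.2% and KO 6 h replicate 2 called 70.7%. The KO libraries at 2 h called 11.7% and 13.8% of them, and those at 0 h called 6.18% and 2.22%. Both KO libraries at 6 h thus lay far above all 4 earlier ones. Of all autosomal regions the earlier KO libraries called 45.7% to 62.6% and those at 6 h 77.4% and 65.8%. The part of this general difference in the shares of the list was not tested.

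The reverse choice gave the same picture. In KO, 7330 regions (6.54%) met the rule. WT libraries called 70.04% and 75.4% of them at 6 h. At 2 h they called 15.02% and 9.54%, and at 0 h they called 7.80% and 7.34%. Of all autosomal regions, the WT libraries called 68.8% and 71.3% at 6 h and 55.9% to 65.3% earlier. The shares of the list at 6 h were thus close to those of all regions, and its earlier shares were far below them. The mean share at 6 h exceeded that at the earlier times by 69.4 percentage points for regions chosen in WT and by 62.8 points for regions chosen in KO. Each direction alone had an exact two-sided permutation p of 0.0667, the smallest that 6 libraries allow. The mean of both directions was 66.1 points; it has no p of its own, since the lists share 3244 regions and each library both chose and was read. Without KO 6 h replicate 2 the difference for regions chosen in KO was 40.7 points, and in thinned lists the mean of both directions was 63.4 points.

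**Figure D1:**
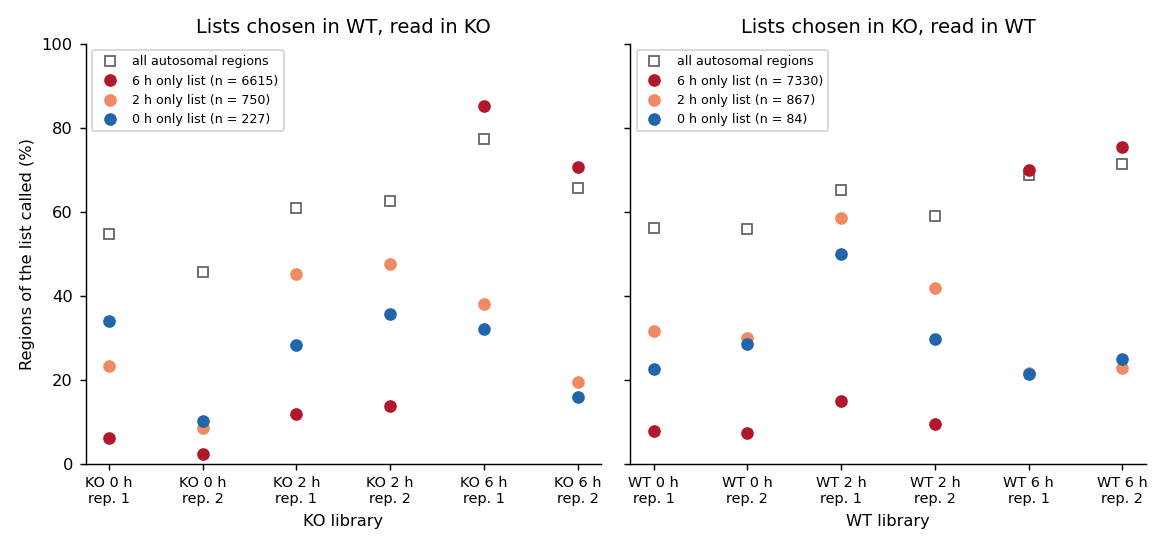
Percentage of regions (vertical axis) that each library called, for lists chosen in the other genotype by being called at 6 h, 2 h or 0 h alone (filled points, with the number of regions in the key) and for all autosomal regions (open squares). The 6 h only lists reach 70.04% to 85.2% in the libraries at 6 h and stay between 2.22% and 15.02% in the others.

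Lists chosen for the other times had lower shares called at their own time. The 750 regions called only at 2 h in WT were called by 45.2% and 47.6% at 2 h in KO, but also by 38.1% and 19.5% at 6 h. The 867 regions called only at 2 h in KO were called by 58.6% and 41.8% at 2 h in WT, and by 21.6% and 22.7% at 6 h. The 227 regions called only at 0 h in WT had 33.9% and 10.1% called at 0 h in KO, against 15.9% to 35.7% at the later times, so they showed no preference for 0 h there. The 84 regions called only at 0 h in KO had 22.6% and 28.6% called at 0 h in WT, against 21.4% to 29.8% in 3 of 4 later libraries and 50% in WT 2 h replicate 1. These differences between lists were not tested.

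The 3244 regions are 49.04% of the WT list and 44.3% of the KO list. Of the WT list, 18.4% were called by 1 of 2 KO libraries at 6 h and by none earlier, and 11.9% were called in both KO libraries at 6 h and already in at least 1 at 2 h. No peak in any KO library was found for 8.24% of the WT list. For the KO list the shares in WT were 18.5%, 8.09% and 11.5%. Of all autosomal regions, the libraries at 6 h called 77.4% and 65.8% in KO and 68.8% and 71.3% in WT. Calls at 6 h in the other genotype were thus frequent among regions of any kind, and their part in these shares was not tested.

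Regions open at 6 h and not at rest were divided by how many libraries at 2 h already called them. Of the 6198 autosomal regions called in 0 of 4 libraries at 0 h and 4 of 4 at 6 h (5.53%), 3244 (52.3%) were called in none at 2 h. Another 1101 were called in 1 library at 2 h, 742 in 2, 588 in 3 and 523 (8.44%) in all 4. The numbers fell steadily with the number of libraries, with no second peak at 4 of 4. Among the 742 regions called in 2 libraries at 2 h, both libraries were KO in 187 cases and both WT in 95. The 4 pairs of 1 WT and 1 KO library gave 88 to 145. The KO libraries at 2 h had background coverages of 2.79 and 3.04 reads and the WT libraries 3.03 and 2.32, and the part of this difference in the counts was not tested.

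The share called at 6 h alone was lower among the taller peaks. Gained regions were ordered by their mean percentile of −log10 q in the lists at 6 h and divided into 4 groups of equal size. The 6 h only regions made up 56.8% of the lowest group, 55.8% and 51.7% of the middle groups and 45.1% of the tallest. Regions already called in all 4 libraries at 2 h made up 4.71%, 5.04%, 8.84% and 15.2%. In thinned lists, a setting chosen after the data were examined, the 6 h only share went from 60.6% in the lowest group to 45.9% in the tallest. Even among the tallest gained regions, then, 699 of 1550 had no call at 2 h.

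**Figure D2:**
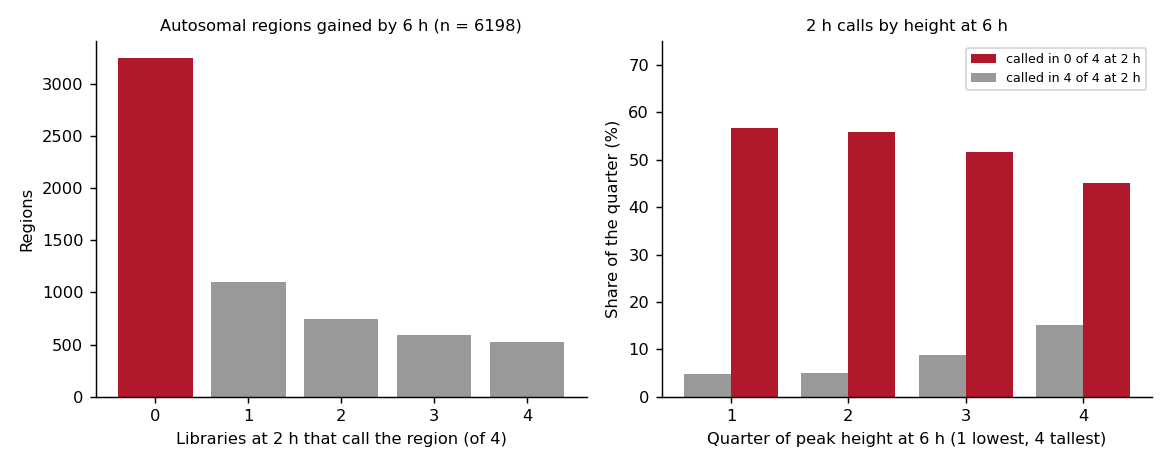
Left, number of regions gained by 6 h (vertical axis) by how many of the 4 libraries at 2 h called them. Right, percentage of each group of gained regions called in 0 of 4 (red) or 4 of 4 (grey) libraries at 2 h, by height at 6 h; the red bars go from 56.8% down to 45.1% and the grey ones from 4.71% up to 15.2%.

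Most 6 h only regions ranked in the lower part of the lists at 6 h, with 67.1% to 79.1% at or below percentile 50. The value used was the percentile of the peak's −log10 q within its own list, the −log10 q being the peak caller's own significance value. Words for height in this text refer to this rank, not to coverage. The median percentile over the 3244 regions was 32.8 in WT 6 h replicate 1, 36.97 in WT 6 h replicate 2, 41.2 in KO 6 h replicate 1 and 32.9 in KO 6 h replicate 2. In the same libraries the regions called in all 12 lists had medians of 71.3 to 75.4, and all autosomal regions 51.1 to 51.6. Regions gained by 2 h and kept stood higher, at 46.4 to 53.3, and gained regions called at 2 h in only some libraries were close to the 6 h only ones, at 35.3 to 43.3. The order of these 4 classes was the same in all 4 libraries. KO 6 h replicate 1, the library with the highest medians in these classes, was also the deepest and had the longest list. A percentile is a rank within its list, and the lists at 6 h differ in length from 78766 to 91610 peaks, so differences between lists are not changes in accessibility. In a bulk assay, fewer cells with an open region and less opening per cell cannot be told apart.

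**Figure D3:**
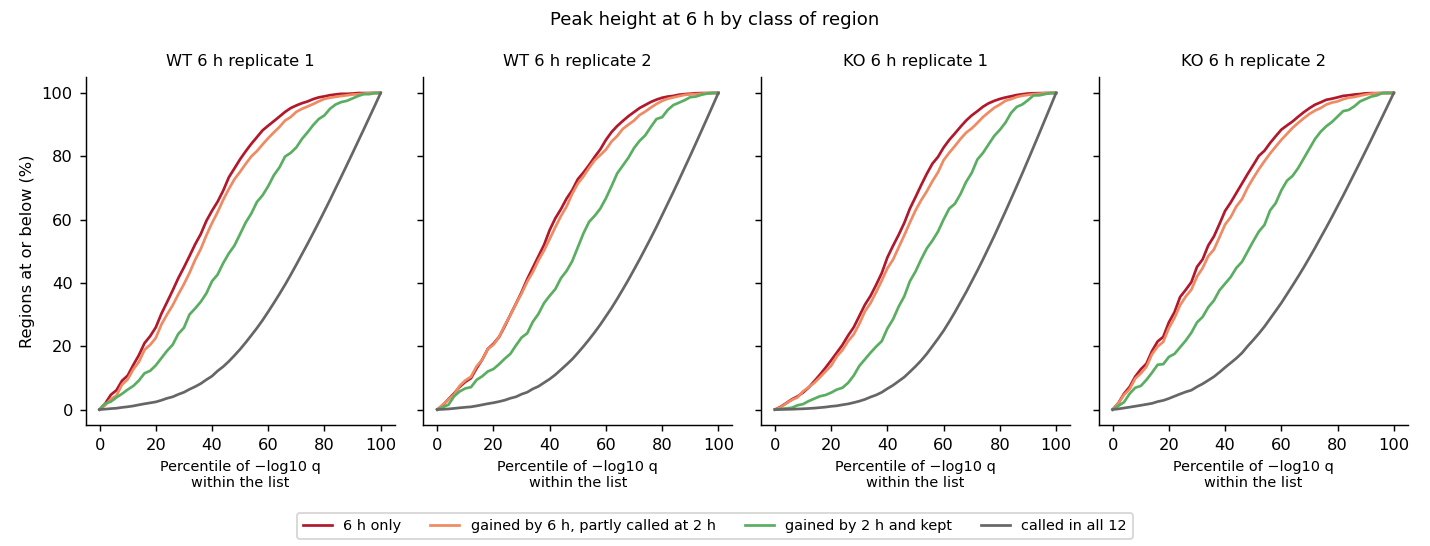
Cumulative percentage of regions (vertical axis) against the percentile of −log10 q within the list (horizontal axis), 1 panel for each library at 6 h and 1 line for each class of region. The 6 h only line lies farthest to the left or beside that of regions partly called at 2 h, and its median runs from 32.8 to 41.2.

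Few of them were among the tallest peaks of a list. Between 4 and 8 of the 3244 regions lay at or above percentile 90 of a list at 6 h (0.123% to 0.247%), against 18.3% to 21.2% of the regions called in all 12 libraries. A single 6 h only region typically had 24.4 percentile points between its highest and lowest list (median; quartiles 16.3 and 32.9). The rank order of the regions was similarly alike within and between genotypes. Spearman's rho over the 3244 regions was 0.596 between the WT libraries, 0.609 between the KO libraries and 0.547 to 0.624 between a WT and a KO library. These values describe regions within shared libraries and carry no test.

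The 6 h only region with the highest mean percentile lay at chr18:11886284-11887067. Its summit coverage was 91 and 88 reads in the WT libraries at 6 h and 122 and 94 reads in the KO libraries. It ranked at percentiles 96.9, 96.1, 98.4 and 97.9 of those lists, and the mean fold over local background, as the authors' peak caller gave it, was 14.9 ± 0.26 (SD, n = 4). Its summits fell within 12 bp of each other in the 4 libraries. No region called in all 12 libraries lay closer than 31234 bp, and another 6 h only region lay 10052 bp away.

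A region at chr5:68024629-68025628 came next, with summit coverages of 75 and 80 reads in WT and 99 and 83 reads in KO at 6 h. Its mean percentile was 93.8 ± 1.9 and its fold 13.2 ± 0.62 (SD, n = 4). The third, at chr13:5822385-5823033, varied least of the 10 between lists, with percentiles of 91.9, 91.3, 91.02 and 91.9. Its coverage was 78 and 81 reads in WT and 94 and 76 reads in KO. Each of these 2 regions had another 6 h only region within 10 kb, at 8112 bp and 5019 bp. A region at chr11:45780259-45780957 completed the 4 whose mean percentile was at least 90, with 90.1 ± 1.4 and coverages of 72, 69, 90 and 57 reads.

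The other 6 of the 10 highest had mean percentiles of 87.6 to 89.6. They lay at chr4:63596072-63597096, chr12:120657928-120658663 and chr1:154664200-154665119. Further ones were at chr7:81537570-81538412, chr16:21509886-21510782 and chr11:64311802-64312645. The chromosome 4 region differed most between lists, from percentile 83.3 in WT 6 h replicate 1 to 93.9 in WT 6 h replicate 2. The chromosome 16 region combined a high fold, 13.5 ± 1.2, with low coverage of 47 to 72 reads, and the chromosome 1 region a low fold, 7.68 ± 0.61, with 91 to 116 reads (SD, n = 4). With 2 libraries against 2, and ranks from lists of different length, no genotype difference was read from these values.

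**Figure D4:**
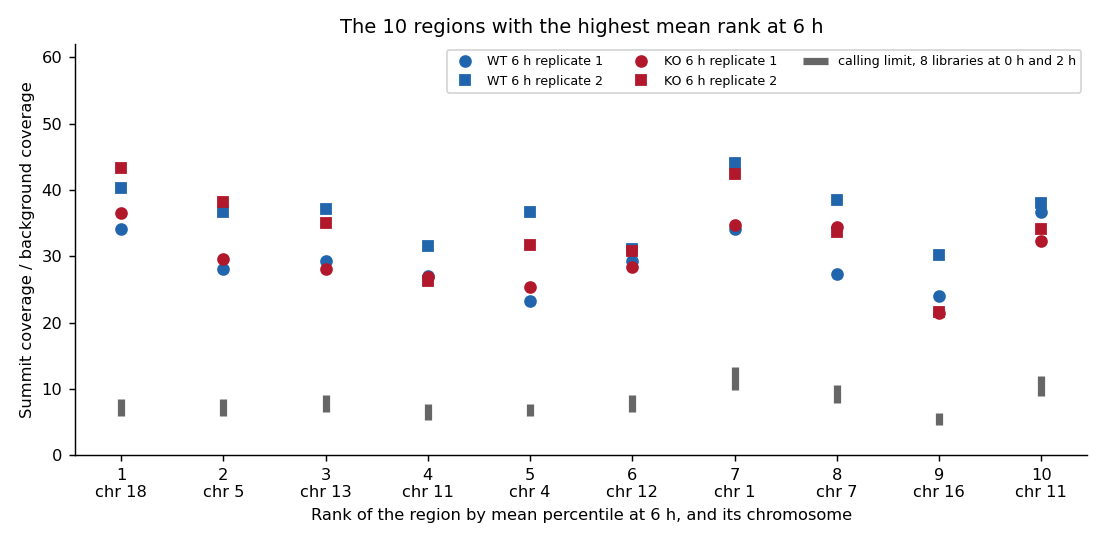
Summit coverage divided by the background coverage of the library (vertical axis) in the 4 libraries at 6 h for the 10 regions with the highest mean rank; grey bars span the coverage needed for a call in the 8 libraries at 0 and 2 h. All points lie above the bars, and the mean coverage of a region is 2.91 to 4.58 times its highest limit.

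The coverage at 6 h was also set against the coverage that a call needed in the earlier libraries. For each region, the coverage at 6 h was scaled by the ratio of background coverages and set against the lowest −log10 p in each earlier list. All 3244 would have passed in each of the 6 libraries other than the KO libraries at 0 h, 3243 in KO 0 h replicate 1 and 3220 in KO 0 h replicate 2. A pass in all 8 was projected for 99.3% of them and for 99.9% of all 61351 autosomal regions called in 4 of 4 libraries at 6 h. Nothing particular to the 6 h only regions is read from this share. Of the latter regions with a projected pass, 68.1% were in fact called in all 8. The margin was small for many. Median coverage at 6 h was 1.43 times the limit in KO 0 h replicate 2, 1.59 times in KO 0 h replicate 1 and 1.77 to 2.04 times in the other 6. At least 2 times the limit was reached by 424 regions in KO 0 h replicate 2 and by 1719 in KO 2 h replicate 2. The projection assumes equal enrichment over background in all libraries, which was not measured, and the part of depth in the absence of calls was not tested.

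The 10 highest regions were chosen by rank at 6 h, so their margin over the limit is a description. On chromosome 18 the mean coverage at 6 h was 38.5 times the background coverage, and the highest limit among the 8 earlier libraries was 8.42. The ratio of the 2 values was 4.58, the largest of the 10, and the smallest was 2.91 for the chromosome 1 region.

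At the other end, 41 regions had a mean percentile under 10. The lowest 5 lay at chr4:87983243-87983555, chr8:87559796-87560240, chr1:162478331-162478760, chr5:35370721-35371063 and chr15:66070747-66071250. Their mean percentiles were 3.74 to 5.12, and 4 of them had summit coverages of 10 to 17 reads. The chromosome 8 region had 25 to 31 reads but a fold of only 2.73 ± 0.24 (SD, n = 4), and lay 819 bp from a region called in all 12 libraries. None of these 5 met the rule in thinned lists.

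Many regions missed the rule by 1 library. Of those called in none at 0 and 2 h, 2571 (2.29% of autosomal regions) were called in 3 of 4 libraries at 6 h. KO 6 h replicate 2, with the fewest peaks and the lowest background coverage at 6 h, was the library without a call for 971 of them. KO 6 h replicate 1, the deepest, was so for 244. WT 6 h replicate 1, with 81749 peaks and a background coverage of 2.67 reads, was so for 845. WT 6 h replicate 2, with 85169 peaks and 2.18 reads, was so for 511. The part of depth or list length in these counts was not tested. The 2571 regions were low, with a median mean percentile of 19.5 against 33.9 for the 6 h only regions. The tallest of them, at chr16:45379652-45380110 and chr8:63942988-63943459, reached 56.7 and 54.9.

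The 1101 regions that missed the rule by 1 library at 2 h (0.983%) were as tall at 6 h as those inside it, with a median mean percentile of 33.7. WT 2 h replicate 2, the shallowest library at 2 h, made 173 of these single calls, and the other 3 made 276 to 327 each. The tallest, at chr5:99803413-99804130, had a mean percentile of 92.7 ± 2.8 at 6 h (SD, n = 4) and was called at 2 h by KO 2 h replicate 1 alone, near the bottom of that list (percentile 3.65). The next, at chr1:167857594-167858474, stood at 91.8 ± 3.1 at 6 h and was called at 2 h by the same KO library, at percentile 23.2 of its list. A further 356 regions (0.318%) missed by 1 library at 0 h, of which KO 0 h replicate 2 made 35 calls and the other 3 made 98 to 116.

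The regions had a median width close to that of all autosomal regions, and their summits agreed fairly well. Median width was 477 bp (quartiles 404 and 577), against 492 bp (344 and 718) for all autosomal regions. Gained regions partly called at 2 h had 487 bp, and those gained by 2 h and kept had 540 bp. Where all 12 lists had a peak it was 775 bp. Widths of chained regions grow with the number of libraries that call them. In each library at 6 h, 3211 to 3217 of the 3244 regions held a single peak. Of the 3147 with 1 peak in each library, 78.3% had all 4 summits within 150 bp, with a median range of 108 bp. The same share was 79.5% in gained regions partly called at 2 h, where the median range was 105 bp. It was 84.3% (98 bp) in those gained by 2 h and kept and 86.6% (82.5 bp) in regions called in all 12 libraries.

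The 6 h only regions lay near one another more often than other regions lay near them. Distances were taken between midpoints. Within 10 kb of a 6 h only region there was another one in 404 of 3244 cases (12.5%; 95% exact binomial interval 11.3% to 13.6%). The same held for 5.41% of all other autosomal regions (5.27% to 5.54%), 5.84% of regions called in all 12 libraries and 8.31% of gained regions partly called at 2 h. The intervals cover counting error only, and neighbouring regions are not independent. Within 1 kb the shares were 1.76% (57 regions) for the 6 h only regions and 0.376% for all other autosomal regions. Whether such close pairs are parts of 1 opening was not tested. The median distance to the nearest 6 h only region was 111686 bp from another 6 h only region and 170970 bp from other autosomal regions. In thinned lists the shares within 10 kb were 9.57% and 4.41%, and with equal numbers of peaks per list 6.44% and 2.94%. No test of this difference was made.

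**Figure D5:**
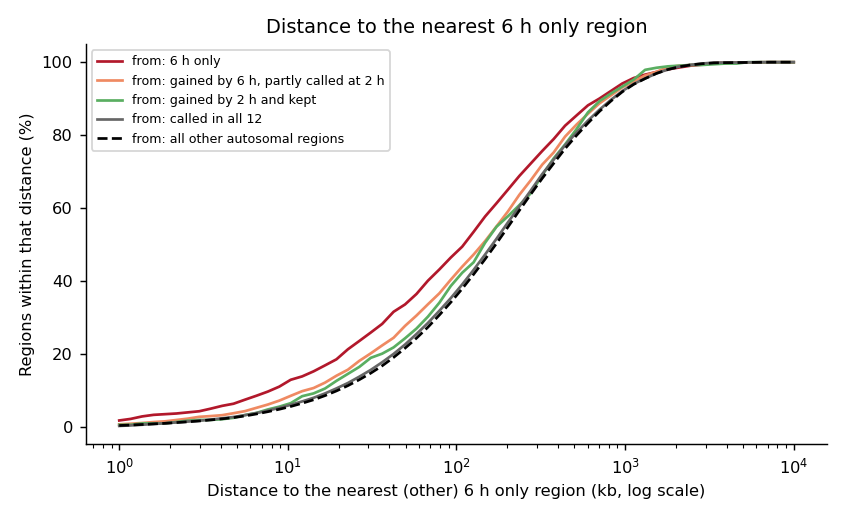
Percentage of regions (vertical axis) with a 6 h only region within a given distance (horizontal axis, kb, log scale), by class of the starting region. The curve from 6 h only regions lies above the others up to 50 kb, with 12.5% within 10 kb against 5.41% of all other autosomal regions.

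The distance to chromatin that was open throughout was close to that of other regions. A region called in all 12 libraries lay within 10 kb of 50.2% of the 6 h only regions, and of 51.8% of all other autosomal regions. Median distances were 9927 bp and 9472 bp. Within 1 kb the shares were 3.39% and 4.11%, so 110 of the 3244 regions lay directly beside a region open throughout. Regions gained by 2 h and kept were within 10 kb of 1.08% of the 6 h only regions and of 1.07% of the others. By contrast, 58.1% of the regions gained by 2 h and kept had a region called in all 12 libraries within 10 kb.

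Joining 6 h only regions with gaps of at most 50 kb left 2148 (66.2%) alone and placed the rest in runs. There were 340 runs of 2, 69 of 3, 32 of 4 and 14 of 5 or more. The longest, at chr16:84590816-84719305, held 8 regions in 128.5 kb, which were 32% of the 25 autosomal regions there. Only 5 of those 25 were called in all 12 libraries, and 1 was gained by 2 h and kept. The tallest of the 8, at 84680737 to 84681550, had a mean percentile of 69.4 ± 9.9 (SD, n = 4), and the lowest, at 84718770 to 84719305, had 15.3 ± 9.8.

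Of 3 runs with 7 regions, the 2 with the widest span are described. At chr4:63342465-63499431, the 7 regions were spread over 156.97 kb with mean percentiles of 23.3 to 62.2, among 24 regions in all. The chromosome 4 region among the 10 highest lay 97428 bp beyond the last of them. At chr5:30190858-30299987, 7 of 13 regions (53.8%) were 6 h only and 1 was called in all 12 libraries. The tallest stood at 30246425 to 30247321, with a mean percentile of 74.7 ± 3.9, followed by 30299275 to 30299987 with 69.9 ± 4.1 and 30206413 to 30207320 with 64.2 ± 6.8 (SD, n = 4). The other 4 of that run were low, at 14.6 to 19.3. In this run tall and low regions thus lay side by side. The low region at 30207590 to 30207941 directly followed the tall one at 30206413 to 30207320. Whether these are parts of 1 opening was not tested.

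All 19 autosomes held such regions, from 92 on chromosome 19 to 276 on chromosome 2. As a share of the regions on a chromosome they were 2.17% on chromosome 17 at the lowest and 3.68% on chromosomes 16 and 18 at the highest, against 2.90% over all autosomes. The X chromosome, outside the rule, held 105 regions with the same calls among 3184 (3.30%).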

How the data were processed

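One peak list per library was analysed. The submitters' processing notes name Bowtie2 2.1.0, MACS2, Picard and the build mm9. How duplicates, the Tn5 offset and MACS2 settings were chosen is not given in the sources here. For each peak the deposited lists hold a score, a fold ratio of summit to local background, and its p-value and q-value as −log10. They are the authors' and served to describe and rank peaks within a list. Peaks were called on each library alone, per the peak names. Duplicates kept in the lists would raise coverage.

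Whole-number summit coverage was solved from fold and p, and matched the deposited p within 0.001 (log10) for 100% of 886143 peaks. The lowest local background of a list was taken as its background coverage. Where a list held several peaks in a region, the one with the highest −log10 q was used. In thinned lists coverage was reduced at random to the lowest background, and peaks with −log10 p of at least 4.28 were kept. Held-out shares were compared by exact two-sided permutation of time labels within genotype, for each direction alone. A joint permutation is not reported, because the directions share regions and libraries. Regions were named by rule: the 10 highest and 5 lowest mean percentiles at 6 h, the 3 longest runs (ties by span) and the 2 tallest just outside the rule on either side. The members, lists and rules were chosen with earlier results of these data known. Code was tested on simulated data. Motifs and gene neighbours, planned for a reference of the same build, were left out. Python 3.11.15, numpy 2.4.6, pandas 2.3.3, scipy 1.17.1 and matplotlib 3.10.9 were used.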

Additional observations from a re-analysis of the deposited data

Results flagged for a closer look

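The X chromosome, which the rule leaves out, held 105 regions called in 0 of 4 libraries at 0 h, 0 of 4 at 2 h and 4 of 4 at 6 h, 3.30% of its 3184 regions. Among regions called at 6 h alone in WT, 7 were called in 2 of 2 KO libraries at 0 h and in 0 of 2 at 6 h. Among those called at 6 h alone in KO, 15 were called in 2 of 2 WT libraries at 0 h and in 0 of 2 at 6 h. These opposite changes are 0.106% and 0.205% of the 2 lists, and the difference between genotypes was not tested for any of them.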

How the results depend on the processing

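The number of 6 h only regions was 2613 to 3252 with peaks of −log10 q of at least 5, with 100 bp of overlap, in thinned lists and with 150 bp around each summit. It was 1709 with the same number of peaks per library and 5815 when 3 of 4 libraries at 6 h sufficed. Leaving out 1 library gave 3279 to 4215, and each such count can only rise. Median width was 503 bp in thinned lists and 579 bp with equal peak numbers. The share within 10 kb of another 6 h only region was 10.7% with the stricter q, 9.57% thinned and 6.44% with equal peak numbers, where other regions gave 4.999%, 4.41% and 2.94%. The share of 6 h only regions within 10 kb of a region called in all 12 libraries was 48.5%, 46.9% and 42.5% in the same settings. Other regions were not counted for this share in those settings. At 5 and 50 kb the shares of 6 h only regions near another 6 h only region were 6.47% and 33.8%. Those near a region called in all 12 libraries were 29.7% and 89.2%. The cause of these shifts was not tested.

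The held-out differences kept their direction in all settings run. Without 1 library they ran from 50.1 to 76.7 points for regions chosen in WT, from 40.7 to 65.5 for those chosen in KO, and from 55.8 to 65.3 for the mean of both. The exact permutation p of a single direction was then 0.0667 to 0.2, in designs that cannot reach 0.05. With regions built from the choosing genotype alone, added after the data were seen, the mean of both directions was 66.1 points. Replicate differences in calls over all autosomal regions correlated at −0.0135 to 0.01996 between times, with no sign of pairing by replicate number. Such correlations of calls cannot exclude a shared mouse, culture or batch. With the replicate number as a block, the differences of 69.4 and 62.8 points (mean 66.1) each had an exact permutation p of 0.111, the smallest of 9 arrangements. Depth at 0 h in KO limits what absence means, as described for the calling limits. Motif shares were not run.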
